A study of Mus musculus with 4 samples.

Results

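The BCL2 family genes that set the threshold for mitochondrial apoptosis were followed across the cell classes of tumor grafts and subcutaneous adipose tissue (SAT) profiled by single-cell RNA sequencing. The list was made of 10 genes chosen by name and found in all 4 expression matrices, out of 31053 genes listed. Its 4 survival genes were Bcl2, Bcl2l1, Mcl1 and Bcl2a1b. Its 6 death genes were Bax, Bak1, Bid, Bcl2l11, Bbc3 and Pmaip1. Mice whose genotype is labelled VFB (FVB in the study's methods) carried subcutaneous grafts of MycCaP, a mouse prostate cancer line made from a Myc transgenic tumor, and were given either PBS (control) or D-CAN. D-CAN binds adipose stromal cells (ASC) through a homing peptide, to which an amphipathic, pro-apoptotic sequence that damages mitochondrial membranes is attached. For each treatment 1 library was made from the tumor and 1 from the stromal vascular fraction (SVF) of SAT, and mouse age and whether cells of several mice were pooled were not given in the sources used here. Red cells and dead cells were removed before capture, so the profiles describe cells that survived dissociation and that step. Cells with a high mitochondrial share of their transcripts were still among them.

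Proteins of the BCL2 family decide whether the outer mitochondrial membrane is opened. Survival proteins hold the pore formers BAX and BAK in check, and the BH3-only proteins, which sense growth factor loss, DNA damage or endoplasmic reticulum stress, release or activate those pore formers. MCL1 turns over quickly and is needed by many cell types, BCL2 is typical of resting lymphocytes, and the BCL2A1 proteins are typical of activated leukocytes.

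The 4 libraries held 2830 and 1525 cells from tumor (control and D-CAN) and 2851 and 1922 cells from SAT, with median counts of 3498, 4855, 1700 and 2920 unique molecular identifiers (UMIs, each standing for 1 captured transcript). Between 0 and 2 cell barcodes were shared by any pair of libraries. After cells with under 200 detected genes were removed, 8986 cells were clustered per tissue and named from marker genes, with the BCL2 family kept out of the clustering. Stromal cells (fibroblast-like and perivascular-like clusters) numbered 193 and 117 in tumor and 463 and 133 in SAT. Endothelial-like cells numbered 101, 67, 558 and 170 in the same order, leukocytes 641, 426, 1820 and 1594, and cancer-like cells 1422 and 706 in tumor. Tumor leukocytes fell into 4 clusters named macrophage-like, 1 of which (165 and 129 cells) held 3 of the 8 macrophage markers and was led by Cd74 and H2-Ab1, whereas SAT leukocytes were mostly B cell-like and T cell-like. In SAT the stromal share was 16.3% (control) and 7.01% (D-CAN), at median stromal depths of 1017 and 4739 UMIs. In tumor the stromal share was 6.99% (control) and 7.87% (D-CAN). The endothelial-like share was likewise lower with D-CAN in SAT, at 19.64% and 8.96%, but not in tumor, at 3.66% and 4.51%. Leukocytes stood at 64.06% and 84.03% in SAT and at 23.22% and 28.65% in tumor. Levels are given as CPM, the UMIs of a gene per 1000000 UMIs summed over a class in a library. Because 1 UMI of this 3′ assay stands for 1 transcript whatever its length, levels of different genes are set side by side without length scaling.

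Bcl2a1b needs a caution before its values, because it has near-identical copies on the same chromosome. Its transcript of 817 bases was 99.14% identical to that of Bcl2a1d (810 bases equal) and 98.16% identical to that of Bcl2a1a (802 bases equal), and over the last 300 bases, where 3′ reads fall, 298 and 296 bases were equal. The copies were also alike around the start of the gene. The 100 bases shown here, read from RefSeq (GRCm38.p6), lie at chr9:89199129-89199228 on the plus strand for Bcl2a1b, at chr9:88956820-88956919 on the plus strand for Bcl2a1a and at chr9:88731851-88731950 on the minus strand for Bcl2a1d. They end before the start sites given by RefSeq, but each stretch reaches past the gene start in the annotation used for gene positions here. Those gene starts are 89199209 for Bcl2a1b, 88956900 for Bcl2a1a and 88731914 for Bcl2a1d. The bases show how few positions tell the copies apart, and capitals mark the base that differs from Bcl2a1b.
Bcl2a1b: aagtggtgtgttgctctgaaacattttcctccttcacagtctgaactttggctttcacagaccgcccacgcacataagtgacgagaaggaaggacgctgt
Bcl2a1a: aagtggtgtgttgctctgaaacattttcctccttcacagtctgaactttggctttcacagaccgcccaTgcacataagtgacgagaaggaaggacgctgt
Bcl2a1d: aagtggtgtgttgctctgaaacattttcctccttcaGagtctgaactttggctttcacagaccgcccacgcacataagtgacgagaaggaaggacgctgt
Reads of the copies can be split or dropped by the counting, so the Bcl2a1b counts are uncertain as to which copy they came from. In leukocytes Bcl2a1a was counted at 46.9 to 59.6 CPM and Bcl2a1d at 17.3 to 26.2 CPM, beside 216 to 576 CPM for Bcl2a1b.

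Mcl1 (chr3:95658788-95663176, GRCm38) was the most abundant survival gene and supplied 12130 UMIs over the 4 libraries. In stromal cells it stood at 147 and 152 CPM in tumor (control and D-CAN) and at 240.1 and 167 CPM in SAT. In endothelial-like cells it stood at 252 and 285 CPM in tumor and at 464 and 483 CPM in SAT. Leukocytes carried 695 and 633 CPM in tumor and 475 and 515 CPM in SAT, and cancer-like cells 137 and 123 CPM. Stromal cells were below endothelial-like cells and below leukocytes in all 4 libraries, and near the cancer-like cells in tumor.

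Bcl2a1b (chr9:89199209-89207827) was the survival gene that separated the classes most. Leukocytes held 576 and 572 CPM in tumor and 216 and 286 CPM in SAT. Stromal cells held 1.28, 13.2, 13.7 and 20.6 CPM across the libraries, which were 1, 12, 13 and 15 UMIs. Cancer-like cells held 1.07 and 0.625 CPM. The stromal UMIs sat in few cells, and all 15 of the SAT D-CAN library came from 1 cell, which also carried Ptprc, the gene of the leukocyte surface protein CD45. Stromal cells with a Ptprc UMI numbered 1, 3, 48 and 4 across the libraries and held 0, 8, 3 and 15 of the Bcl2a1b UMIs.

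Bcl2 (chr1:106538178-106714274) differed in its order between the tissues. In stromal cells it was counted at 14.1 and 19.8 CPM in tumor and at 41.1 and 49.4 CPM in SAT. In endothelial-like cells the order was turned, with 43.2 and 34.4 CPM in tumor and 26.9 and 24.9 CPM in SAT. Leukocytes had 29.5 and 28.5 CPM in tumor but 176 and 174 CPM in SAT, where T cell-like cells carried 283 and 284 CPM. Cancer-like cells had 17.3 and 18.2 CPM. Bcl2l1 (chr2:152780668-152831728), whose long product is BCL-xL, was low throughout, at 10.2, 14.3, 20.01 and 19.2 CPM in stromal cells. Endothelial-like cells held 17.98, 20.6, 48.6 and 46.8 CPM, and cancer-like cells 23.3 and 24.6 CPM. Tumor leukocytes had 52.7 and 59.6 CPM and SAT leukocytes 16.9 and 12.1 CPM, so that tumor stromal cells stood below the leukocytes of their tissue. The SAT stromal levels were above those of SAT leukocytes but rested on 19 and 14 UMIs. Their counting intervals (12.05 to 31.25 and 10.5 to 32.2 CPM) overlapped those of the leukocytes (13.3 to 21.1 and 9.45 to 15.4 CPM).

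Among the death genes Bax (chr7:45461697-45466898), a pore former, was the most abundant, with 5700 UMIs. Stromal cells carried 134, 143, 95.8 and 70.0 CPM of Bax. Endothelial-like cells carried 191, 186, 106 and 105 CPM, and leukocytes 190.3, 191, 98.7 and 103 CPM, so each of these classes was higher in tumor than in SAT. Cancer-like cells held 123 and 125 CPM. The other pore former, Bak1 (chr17:27019810-27029009), lay at 28.2, 36.4, 22.1 and 21.9 CPM in stromal cells and at 50.4, 34.4, 33.0 and 44.9 CPM in endothelial-like cells. In the remaining classes Bak1 ranged from 14.7 to 46.3 CPM.

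The BH3-only genes were less abundant. Bcl2l11 (chr2:128126038-128162547), which encodes BIM, stood at 17.9, 8.82, 24.2 and 17.8 CPM in stromal cells. It was higher in endothelial-like cells of every library, at 75.5, 37.8, 45.1 and 56.8 CPM, and in leukocytes, at 61.7, 76.5, 34.0 and 32.7 CPM. Bid (chr6:120891930-120916853), which links death receptors to mitochondria, lay between 2.74 and 8.97 CPM in stromal cells and between 16.0 and 20.6 CPM in leukocytes. Its stromal levels rested on 7, 7, 7 and 2 UMIs across the libraries. Bbc3 (chr7:16308393-16318205), which encodes the p53 target PUMA, lay between 6.40 and 17.9 CPM in stromal cells and between 16.1 and 30.8 CPM in leukocytes.

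Pmaip1 (chr18:66458533-66465565), which encodes NOXA, an inhibitor of MCL1, was the death gene that differed most between tissues within stromal cells. It was counted at 46.1 and 37.5 CPM in tumor (36 and 34 UMIs) and at 9.48 and 1.37 CPM in SAT (9 UMIs and 1 UMI). Leukocytes ran the other way, at 29.5 and 25.8 CPM in tumor and 48.7 and 46.3 CPM in SAT. Cancer-like cells had the highest class level, at 65.7 and 71.8 CPM.

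**Figure D1:**
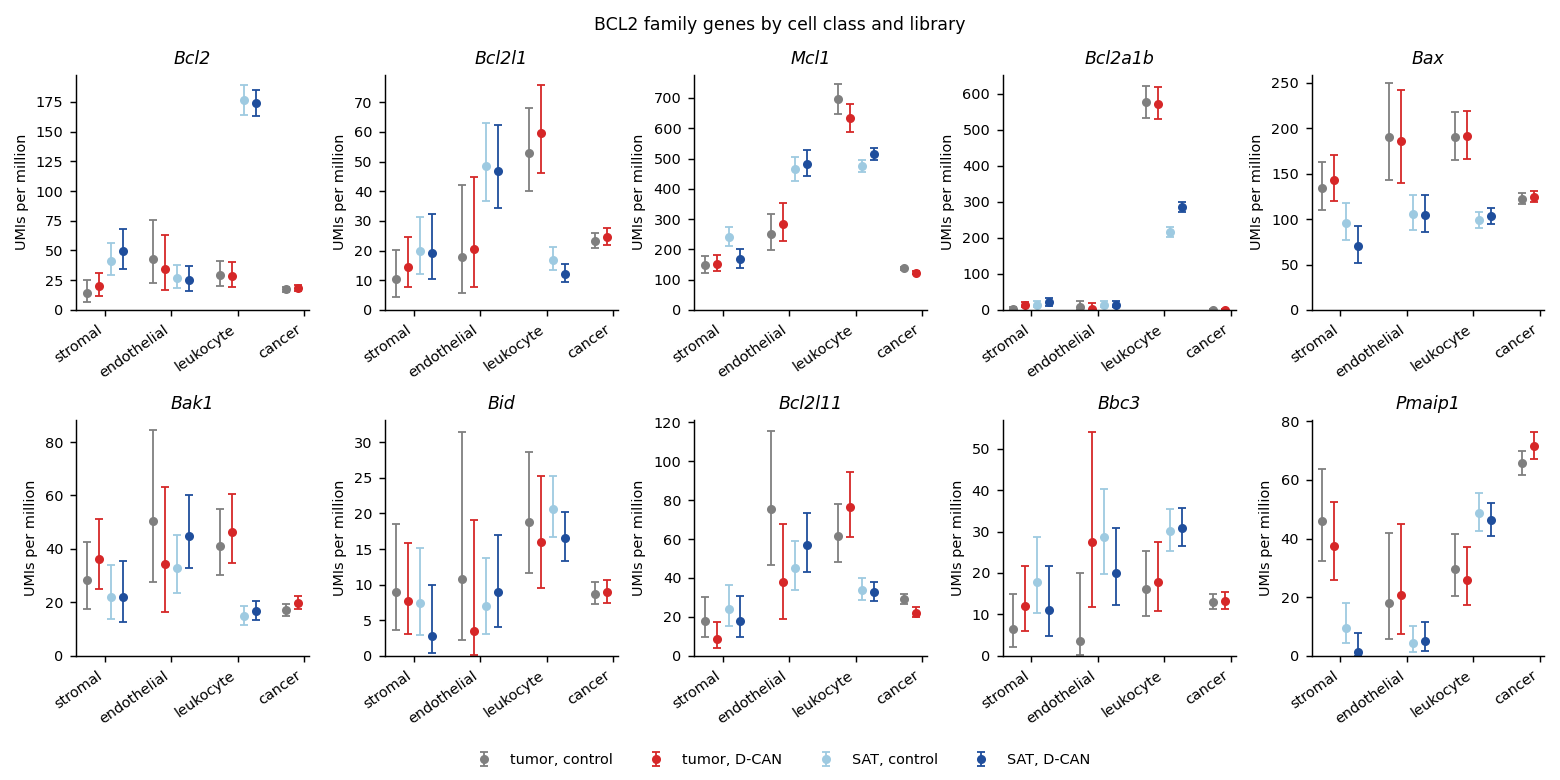
Level of each of the 10 genes (CPM) in stromal, endothelial-like, leukocyte and cancer-like cells, 1 point per library with its exact 95% counting interval. Leukocytes stand apart for Bcl2a1b, and stromal cells lie below endothelial-like cells for Mcl1, Bcl2l11, Bcl2l1 and Bax in every library.

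Stromal cells were then compared with each other class by edgeR's quasi-likelihood test on the UMIs summed per library and class, with the library as a term, over 11440 genes. The libraries are the replicates here, 4 for endothelial-like cells and leukocytes and 2 for cancer-like cells, and whether they stand for separate animals was not given. Differences are log2 values ± standard error with Benjamini-Hochberg adjusted p. Relative to endothelial-like cells, stromal cells had less Mcl1 and less Bcl2l11, a survival gene and the death gene that MCL1 can hold. Mcl1 differed by -0.996 ± 0.23 (adjusted p = 0.00978) and Bcl2l11 by -1.57 ± 0.34 (adjusted p = 0.00639), both lower in 4 of 4 libraries. Bcl2l1 and Bax were also lower in 4 of 4 libraries but were not called, and the share of all genes in that order was not counted. The 2 called genes of 10 stand beside 8.81% of all genes tested that were lower in stromal cells, and none of the 10 stands beside 11.2% that were higher. The median difference was -0.46 over the 10 genes and 0.02 over all genes. Bcl2l1 (-1.202 ± 0.54, adjusted p = 0.152) and Pmaip1 (1.29 ± 0.85, adjusted p = 0.347) did not pass the test. In a fit of the tumor libraries alone Pmaip1 was higher in stromal cells (1.27, adjusted p = 0.0268) and 2 members were lower. There 1330 genes were higher and 1076 lower of 10259. In SAT alone Bcl2 was higher (0.81, adjusted p = 0.0352) and 3 members were lower, among them Bcl2l1 (-1.26, adjusted p = 0.0101). There 1397 genes were higher and 1159 lower of 10133. Leaving either tumor library or the SAT D-CAN library out of the fit of all 4 libraries left 1 of the 10 genes called. Mcl1 did not pass without tumor D-CAN (-1.10, adjusted p = 0.060) or without SAT D-CAN (-0.79, adjusted p = 0.0698). Bcl2l11 did not pass without tumor control (-1.47, adjusted p = 0.0679).

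Relative to leukocytes, 7 of the 10 genes were lower in stromal cells, each in 4 of 4 libraries, and none was higher, beside 20.7% and 23.2% of all genes. Bcl2a1b was lower by the widest margin (-5.37 ± 0.54, adjusted p = 1.34e-05), followed by Mcl1 (-2.07 ± 0.23, adjusted p = 2.97e-05). The other survival gene that passed was Bcl2 (-1.93 ± 0.51, adjusted p = 0.00955). Death genes were lower too. Bcl2l11 differed by -1.84 ± 0.32 (adjusted p = 7.01e-04), Bid by -1.76 ± 0.35 (adjusted p = 0.00156), Bbc3 by -1.37 ± 0.33 (adjusted p = 0.00610) and Bax by -0.70 ± 0.16 (adjusted p = 0.00329). The median was -1.57 over the 10 genes and -0.083 over all genes. Bcl2l1 (-1.28, adjusted p = 0.0658), Pmaip1 (-1.39, adjusted p = 0.123) and Bak1 (-0.30, adjusted p = 0.358) did not pass. Scaling by library size alone moved the median of all genes by 0.34 and changed the split of all called genes from 2651 higher and 2373 lower to 3479 higher and 1444 lower. Bax did not pass under that scaling (-0.37, adjusted p = 0.0552) or with no library term (adjusted p = 0.0835), nor Bcl2 without SAT control (adjusted p = 0.0607), nor Bbc3 without SAT D-CAN (adjusted p = 0.0548) or in tumor alone (adjusted p = 0.108). With macrophage-like cells as the only leukocytes, a choice made after the data were seen, 8 of the 10 genes were lower. In that fit 2056 genes were lower and 2550 higher of 11060 tested. Bcl2 no longer passed there (-0.58, adjusted p = 0.145), and Bcl2l1 (-1.53, adjusted p = 0.0185) and Bak1 (-0.62, adjusted p = 0.0439) did.

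Against cancer-like cells, only Bcl2a1b passed the test, higher in stromal cells (3.42 ± 0.77, adjusted p = 0.00359), beside 27.2% of genes higher and 22.1% lower. In tumor control its stromal level rested on 1 UMI, at 1.28 CPM against 1.07 CPM in cancer-like cells. The class terms of this fit are shared by all libraries, so the SAT sums also enter the comparison. The Bcl2a1b call was lost when stromal, endothelial-like and cancer-like cells with a Ptprc UMI were left out (2.18, adjusted p = 0.0936) and when the tumor D-CAN library was left out (2.89). It was also lost with cells of 500 genes or more (2.44, adjusted p = 0.0534), where Bcl2l11 was the only member called (-1.05, adjusted p = 0.0454). Pmaip1 (-1.63 ± 0.72, adjusted p = 0.0810), Bbc3 (-0.99, adjusted p = 0.0602) and Bcl2l11 (-0.79, adjusted p = 0.113) did not pass. Scaling by library size alone moved the median of all genes by 0.37 and the split of called genes from 3111 higher and 2529 lower to 3778 higher and 1554 lower. In a fit of the 2 tumor libraries alone 5 of the 10 genes passed, beside 3270 genes higher and 3158 lower of 10259 tested. Bcl2a1b (2.86) and Bak1 (0.57, adjusted p = 0.0330) were higher in stromal cells, and Bcl2l1 (-1.19, adjusted p = 7.87e-04), Bcl2l11 (-1.21, adjusted p = 0.00266) and Pmaip1 (-0.97, adjusted p = 5.04e-05) were lower.

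**Figure D2:**
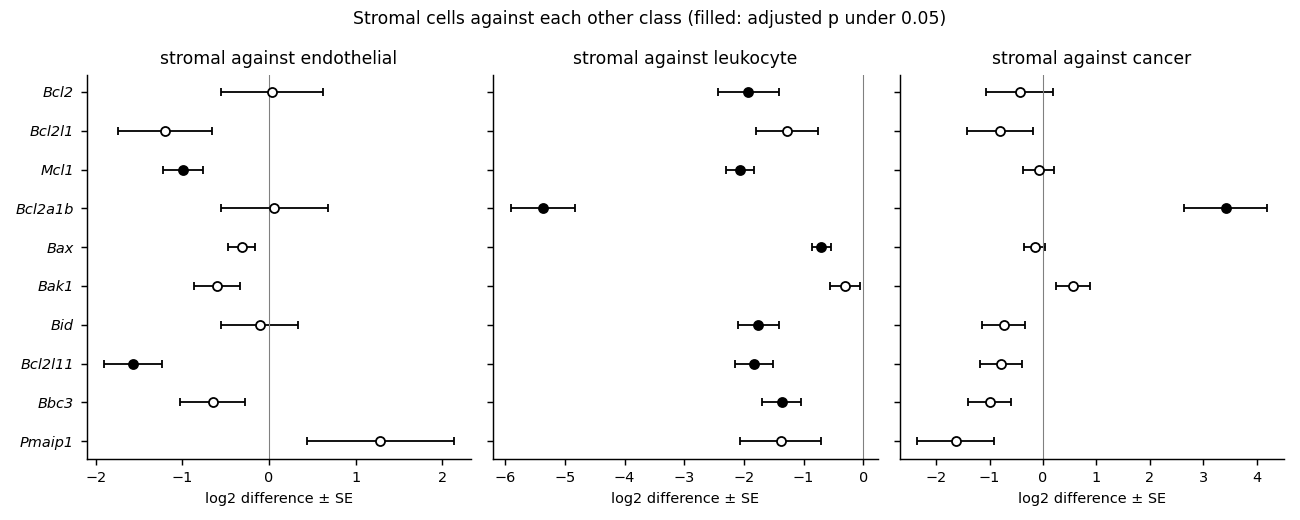
Difference of stromal cells from endothelial-like cells, leukocytes and cancer-like cells for each gene (log2 on the horizontal axis), with standard errors from edgeR's fit and filled points for adjusted p under 0.05. Against leukocytes all 10 points lie below 0, from -0.30 for Bak1, which is at 0.012 under scaling by library size alone, to -5.37 for Bcl2a1b.

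Whether these differences were alike in the 2 tissues was tested as an interaction of tissue and class, in a fit of the stromal, endothelial-like and leukocyte sums over 9378 genes that was added after the data were seen. It had 4 residual degrees of freedom. For stromal against endothelial-like cells 3.80% of genes passed, and of the 10 genes Bcl2 did. Bcl2 was lower in stromal cells in tumor (-1.03) and higher in SAT (0.78), a difference of 1.81 ± 0.44 (adjusted p = 0.0428), which passed in none of 6 alternative fits (adjusted p from 0.0519 to 0.375).

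For stromal cells against leukocytes 23.4% of genes passed the interaction test, and of the 10 genes Pmaip1, Bcl2l1, Bcl2 and Bcl2a1b did. Pmaip1 was at 0.44 in tumor and -3.50 in SAT, a difference of -3.93 ± 0.49 (adjusted p = 1.07e-04). Bcl2l1 was at -2.33 in tumor and -0.06 in SAT, a difference of 2.27 ± 0.41 (adjusted p = 0.00154). Both still passed with macrophage-like cells as the only leukocytes in either tissue, at -4.65 (adjusted p = 6.72e-04) for Pmaip1 and adjusted p = 0.0298 for Bcl2l1. Bcl2 differed by -1.55 (adjusted p = 0.00761), with macrophage-like cells alone the sign turned to 0.45 (adjusted p = 0.640), and without the tumor D-CAN library it did not pass (-1.25, adjusted p = 0.144). Bcl2a1b differed by 2.004 (adjusted p = 0.0284). Its difference stayed of like size, but did not pass, without the Ptprc-positive cells (1.85, adjusted p = 0.373) and with macrophage-like cells alone (2.26, adjusted p = 0.0696). With single libraries left out it ranged from 1.16 to 4.50, and it did not pass without tumor control (1.16, adjusted p = 0.138) or SAT D-CAN (1.88, adjusted p = 0.0754).

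**Figure D3:**
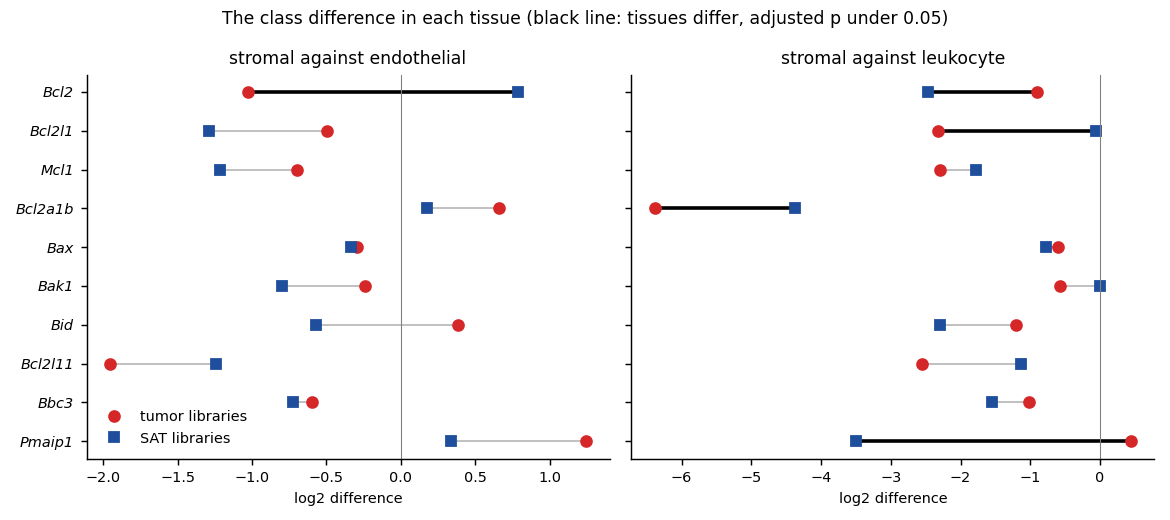
Difference of stromal cells from endothelial-like cells and from leukocytes for each gene (log2), in tumor (circles) and in SAT (squares), with black lines where the tissues differ at adjusted p under 0.05. Pmaip1 lies at 0.44 in tumor and -3.50 in SAT against leukocytes, and Bcl2 at -1.03 and 0.78 against endothelial-like cells.

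The balance of the list was then expressed as the share of its UMIs that came from the 4 survival genes, with exact Clopper-Pearson intervals that cover counting error only. In stromal cells the survival share was 41.7% (36.2 to 47.2) and 44.8% in tumor and 64.0% and 67.3% in SAT. Endothelial-like cells stood at 47.9% and 52.6% in tumor and 71.2% and 70.4% in SAT. Cancer-like cells stood at 41.1% and 39.0%. Leukocytes had the highest share in all 4 libraries, at 79.1%, 77.6%, 78.2% and 80.0%, but their types differed between tissues. Macrophage-like cells made up these tumor shares and stood at 75.5% and 70.5% in SAT. There a cluster of mixed lymphocytes stood at 58.6% and 60.4%, T cell-like cells at 79.2% and 78.9%, and B cell-like cells at 83.0% and 87.3%. Stromal cells were 37.4 and 32.8 percentage points below leukocytes in tumor and 14.2 and 12.8 points below in SAT, with every interval apart from 0. They were 3.09 to 7.83 points below endothelial-like cells, where the interval excluded 0 in the SAT control library only (-7.21, from -12.6 to -1.87). In tumor they stood 0.53 points (control) and 5.77 points (D-CAN, 0.68 to 10.9) above cancer-like cells. In an exact two-sided sign-flip test over the 4 libraries, added after the data were seen, the mean difference of -24.3 ± 12.7 points from leukocytes (SD, n = 4) and that of -6.08 ± 2.10 points from endothelial-like cells (SD, n = 4) both had p = 0.125, the smallest that 4 libraries can give.

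Mcl1 alone supplied 34.2% to 48.8% of the stromal UMIs of the list. Without Mcl1 the survival share in stromal cells fell to 9.57% and 16.2% in tumor and 29.7% and 41.7% in SAT. Leukocytes without Mcl1 kept 64.8%, 63.9%, 62.4% and 65.7%, which came mainly from Bcl2a1b in tumor and from Bcl2a1b and Bcl2 in SAT. The difference from endothelial-like cells without Mcl1 stayed negative in tumor control, at -6.81 points (-15.6 to 1.06). It was near even in tumor D-CAN, at 0.28 points (-9.05 to 8.35), and in SAT control, at 0.98 points (-6.59 to 8.73). In SAT D-CAN it was 15.1 points (5.78 to 24.6), and the exact sign-flip test over the 4 libraries gave p = 0.625. The SAT D-CAN value was 12.5 points (3.101 to 22.1) without Bcl2a1b as well, and -0.42 points when only cells with 500 genes or more were used. In cancer-like cells 622 of 4443 and 556 of 3893 UMIs were left to survival genes, the latter 14.3%. Taking out Bcl2a1b instead brought the gap between stromal cells and leukocytes in tumor down to -27.0 points in the control and -22.7 points in the D-CAN library. The summed level of the 10 genes was 381 to 492 CPM in stromal cells, 653 to 810.3 CPM in endothelial-like cells, 1131 to 1711 CPM in leukocytes, and 435 and 427 CPM in cancer-like cells.

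**Figure D4:**
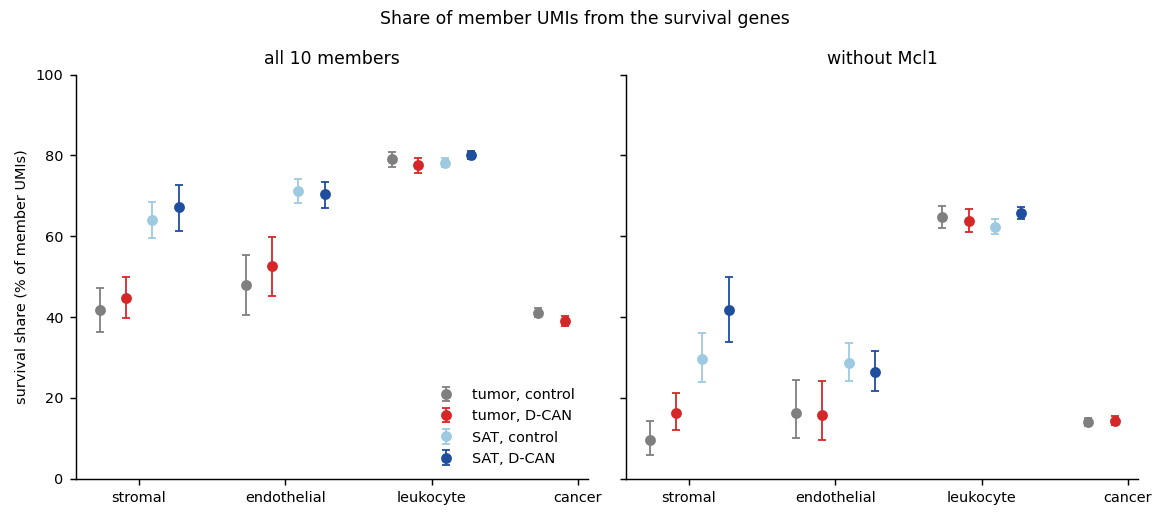
Share of the list's UMIs that came from the 4 survival genes (percent), by class and library, with exact 95% intervals, with Mcl1 and without it. Leukocytes lie at 77.6% to 80.0% in every library, while stromal cells lie at 41.7% and 44.8% in tumor and at 64.0% and 67.3% in SAT.

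Immediate early genes, which tissue dissociation can raise, moved with tissue and class. All 9 of them were detected, and their summed level was 3526 and 3596 CPM in tumor stromal cells and 8984 and 12908 CPM in SAT stromal cells. Endothelial-like cells held 5341, 5276, 9488 and 13902 CPM across the libraries, above stromal cells in each. Leukocytes held 4565 to 7215 CPM and cancer-like cells 1326 and 1459 CPM. The part of the immediate early genes in the Mcl1 levels was not tested. The 4 shared leukocyte markers summed to 38.4, 39.7, 381 and 49.4 CPM in stromal cells, beside 2635 to 3892 CPM in leukocytes, with the highest stromal value in the SAT control library. In cancer-like cells the survival share also moved with the mitochondrial share of UMIs, at 53.7% and 50.8% in cells with over 20% mitochondrial UMIs and at 39.5% and 38.2% in cells with at most 10%.

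Within the stromal class, Pmaip1 UMIs were unevenly spread over clusters, which is given as values with no test. In tumor fibroblast-like cells it stood at 73.7 and 48.2 CPM (31 and 29 UMIs), all of it in the larger of 2 fibroblast-like clusters, which also carried 4 perivascular markers. Tumor perivascular-like cells, a cluster with all 9 perivascular markers but with collagen genes among its leading genes, held 13.9 and 16.4 CPM. In SAT fibroblast-like cells it was 8.95 and 2.21 CPM. The survival share was 36.4% and 44.1% in tumor fibroblast-like cells and 47.2% and 46.0% in perivascular-like cells, and in SAT 60.4% and 65.3% against 68.4% and 69.5%.

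Levels of the survival genes differed in order among leukocyte types of SAT, with 1 library per condition and no test between types. T cell-like cells carried the most Bcl2, at 283 and 284 CPM, and 390.2 and 426 CPM of Mcl1. B cell-like cells had 134 and 123 CPM of Bcl2 and almost no Bcl2l1, at 2.20 and 1.202 CPM. Neutrophil-like cells (16 and 18 cells) held no Bcl2 UMI (exact 95% intervals reach 163 and 101 CPM) and had the highest Mcl1, at 2380.0 and 3637 CPM from 54 and 133 UMIs. Their survival share was 89.1% and 95.2%. Dendritic-like cells carried 1002 and 915 CPM of Bcl2a1b and the highest Pmaip1 among these leukocyte types, at 246 and 212 CPM.

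D-CAN was compared with control within each class and tissue. With 1 library on each side there is no replicate check, so the values are ratios with exact counting intervals, and a ratio was called past the fold at 2-fold or more either way with at least 20 UMIs over both libraries. In stromal cells of the tumor 1 of 7 counted members was past it, beside 4.65% of all genes counted. That member was Bcl2l11, with 8 UMIs against 14 (log2 ratio -1.02, from -2.48 to 0.33). In SAT stromal cells none of 8 was past the fold, beside 9.98% of genes. No member was past it in endothelial-like cells (7.69% of genes in tumor, 4.89% in SAT), leukocytes (4.13% and 3.54%) or cancer-like cells (2.0%). Thus at this depth 1 of the 58 counted ratios was past the fold, and it rested on few UMIs.

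Smaller ratios had intervals apart from 0. These intervals cover counting error only, and the share of all genes with such intervals was not counted, so the ratios are not read as effects of D-CAN. Mcl1 in SAT stromal cells was lower with D-CAN (log2 ratio -0.52, from -0.85 to -0.20), at 122 UMIs against 228. Among fibroblast-like cells, with 53 UMIs against 115, the ratio was -0.82 (-1.31 to -0.33). The level was lower in each of 3 fibroblast-like clusters present in both libraries. It stood at 116 against 196 CPM, 82.8 against 155 CPM and 206 against 254 CPM. These clusters come from the same 2 libraries, so they do not repeat the comparison. The clusters did not make up the class alike, since the largest control cluster held 175 control cells and 23 D-CAN cells. Markers of other classes also differed between these SAT stromal sums. The 8 endothelial markers summed to 1331 CPM in control and 564 CPM in D-CAN, the 4 shared leukocyte markers to 381 and 49.4 CPM, and the 7 T cell markers to 252 and 27.4 CPM, and their part in the Mcl1 ratio was not tested. In cancer-like cells Mcl1 (-0.15, from -0.25 to -0.06) and Bcl2l11 (-0.39, from -0.61 to -0.17) were lower with D-CAN. In SAT leukocytes Mcl1 (0.12) and Bcl2a1b (0.40, from 0.29 to 0.52) were higher.

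The survival share of stromal cells changed with D-CAN by 3.14 points in tumor (-4.30 to 10.5) and by 3.24 points in SAT (-4.06 to 10.4), within counting error in both. Without Mcl1 the stromal change was 6.60 points in tumor (0.19 to 12.8) and 11.96 points in SAT (1.95 to 21.9). The Bcl2a1b UMIs from Ptprc-positive cells, 8 of 12 in tumor D-CAN and 15 of 15 in SAT D-CAN, are part of those shares. With Bcl2a1b left out as well, the stromal change was 3.07 points in tumor (-2.998 to 8.933). In SAT it was 9.797 points (-0.2272 to 19.95), so both of these intervals included 0. With all 10 genes, cancer-like cells changed by -2.11 points (-3.88 to -0.33), and SAT leukocytes by 1.84 points (0.37 to 3.33). Without Mcl1 these changes were 0.28 points (-1.23 to 1.80) and 3.31 points (1.03 to 5.60). Without Bcl2a1b alone they were -2.05 points (-3.82 to -0.27) and 0.98 points (-0.82 to 2.78).

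**Figure D5:**
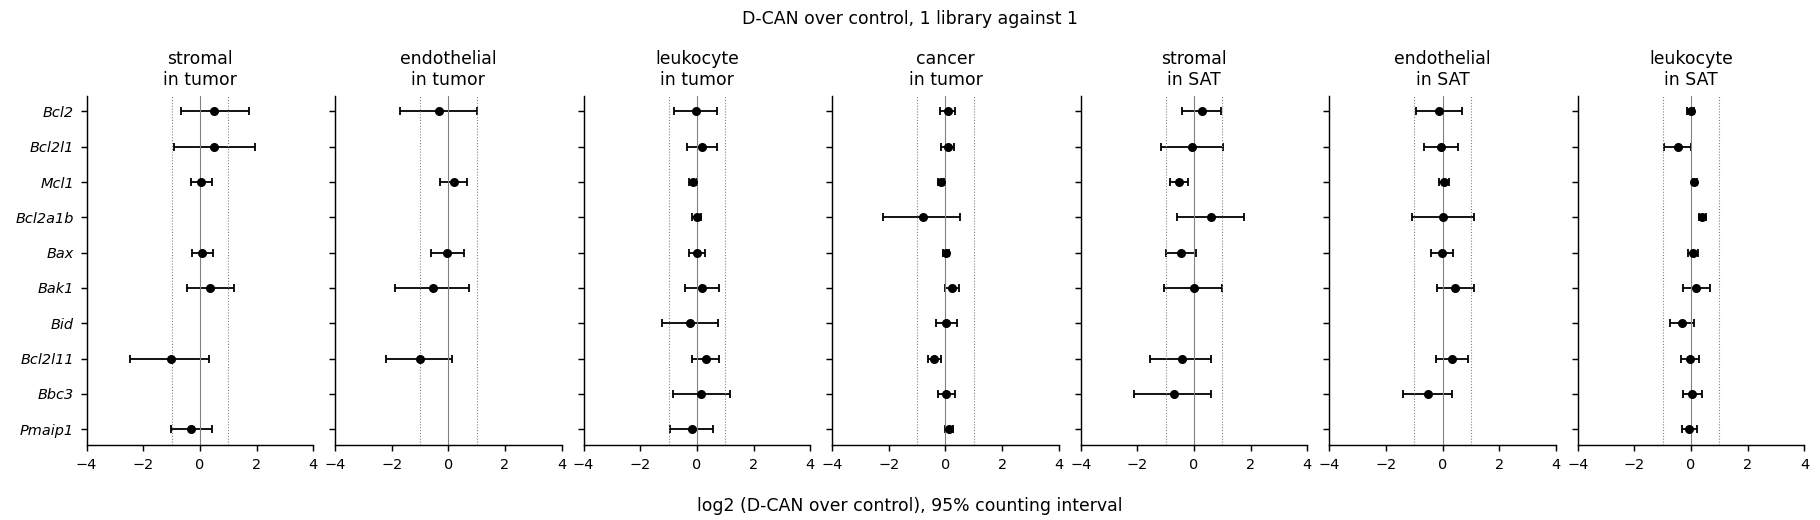
Ratio of D-CAN to control for each gene in each class (log2), in tumor and in SAT, with exact 95% counting intervals, for genes that reached 20 UMIs in the library pair. Of the points, Bcl2l11 in tumor stromal cells lies lowest at -1.02, with an interval that reaches 0.33.

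Within SAT leukocytes the Bcl2a1b ratio was widest in B cell-like cells. These held 306 Bcl2a1b UMIs (225 CPM) in 665 control cells and 844 UMIs (507 CPM) in 627 D-CAN cells, a log2 ratio of 1.17 (0.98 to 1.37), where 3.89% of all genes counted were past the fold. The share of B cell-like cells with a Bcl2a1b UMI went from 27.5% to 54.2%. When each cell was thinned to 1000 UMIs it went from 17.4% (14.4 to 20.7, 576 cells) to 31.5% (27.8 to 35.4, 593 cells). In endothelial-like cells of SAT, where the gene was counted at 14.75 and 14.95 CPM, the thinned share was 1.74% and 0.654%, at median depths of 1034 and 4236 UMIs. The 10 cells with the most Bcl2a1b held 15.0% and 10.3% of the B cell-like UMIs, so the UMIs were spread over many cells. The near-identical Bcl2a1d was at 13.96 and 31.2 CPM (19 and 52 UMIs, log2 ratio 1.16), and Bcl2a1a at 27.2 and 39.1 CPM (0.52, from -0.08 to 1.15).

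Other SAT leukocytes varied. A cluster of mixed lymphocytes had 107 and 184 CPM of Bcl2a1b. T cell-like cells had 127 and 126 CPM, and 2.91% of their genes were past the fold. Macrophage-like cells had 320.3 and 206 CPM, with 10.4% of their genes past the fold, and their 10 top cells held 72.9% and 91.6% of the UMIs. Bak1 in those macrophage-like cells was at the fold, from 8 to 20 UMIs (log2 ratio 1.001, from -0.24 to 2.39). The SAT D-CAN matrix was made with another Cell Ranger version (3.0.2) than the other libraries (3.1.0), which cannot be told apart from the treatment in SAT.

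Genes that act beside the list were counted from 8 lists of apoptosis and stress genes. Their counts are read beside the shares of all genes called, which were 11.2% higher and 8.81% lower against endothelial-like cells. Relative to those cells, stromal cells had less of 2 of 8 apoptosome genes, among them the caspase gene Casp8 (-1.62 ± 0.25, adjusted p = 8.53e-04), and none was higher. The median over that list was -0.50. Of 7 death receptor genes 2 were lower, among them Tnfrsf10b, the mouse TRAIL receptor (-2.18 ± 0.48, adjusted p = 0.00744), and the median was -0.78. Among 5 genes of the inhibitor of apoptosis proteins (IAPs) and their antagonists, the caspase inhibitor Xiap was lower (-1.203 ± 0.23, adjusted p = 0.00350), while the antagonists Htra2 (0.83, adjusted p = 0.0184) and Diablo (0.69, adjusted p = 0.0222) were higher. Of 11 other BCL2 family genes tested 2 were lower, with Bik, a BH3-only gene, at 0 to 6.32 CPM in stromal cells and 14.4 to 51.6 CPM in endothelial-like cells. The p53 response list had 2 of 10 higher, with Phlda3 at 1.32 ± 0.38 (adjusted p = 0.0302). None of 6 genes of the mitochondrial channel passed. Of 6 upstream stress genes Ddit3 was higher (0.93), and of 9 immediate early genes Ier2 was lower (-0.76).

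Against leukocytes, where 23.2% of all genes were higher and 20.7% lower, 3 of 11 further BCL2 family genes were higher and 2 lower, shares near those of all genes. The copies Bcl2a1d (-5.36, adjusted p = 5.73e-05) and Bcl2a1a (-4.75, adjusted p = 8.27e-05) were lower. Bok, a further relative of BAX and BAK, was at 37.9 to 68.3 CPM in stromal cells and at 0 to 0.894 CPM in leukocytes. The IAP genes Birc3 (-2.04, adjusted p = 6.02e-04) and Birc2 (-1.10, adjusted p = 0.0203) were lower. Of the other lists, 2 of 8 apoptosome genes were lower, 1 of 7 death receptor genes was higher and 1 lower, and 1 of 6 channel genes was higher. Of 10 p53 response genes 1 was higher and 1 lower, of 9 immediate early genes likewise, and none of 6 stress genes passed.

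Against cancer-like cells, where 27.2% of all genes were higher and 22.1% lower, 4 of 7 death receptor genes and 4 of 8 apoptosome genes were higher in stromal cells, and 1 apoptosome gene was lower. The stromal ranges given here span all 4 libraries, SAT included, while the cancer-like values come from the 2 tumor libraries. Fas, a death receptor, was at 3.84 to 24.2 CPM in stromal cells and at 0.134 and 0.234 CPM in cancer-like cells (adjusted p = 1.12e-04). Apaf1, the scaffold of the apoptosome, was at 8.43 to 24.3 CPM and at 2.19 and 2.88 CPM (adjusted p = 1.57e-04). Birc3 and Endog, a mitochondrial nuclease, were at 9.92 to 16.9 and 20.01 to 31.6 CPM in stromal cells, while cancer-like cells held 0 or 1 UMI of each per library. Cflar, an inhibitor of death receptor signaling, was also higher (1.90 ± 0.22, adjusted p = 3.62e-05). The medians were 1.16 for the apoptosome list and 1.49 for the death receptor list. Elsewhere 2 of 11 other BCL2 family genes, 1 of 5 IAP genes and 4 of 9 immediate early genes were higher. Of 10 p53 response genes 3 were higher and 1 lower, of 6 stress genes 2 and 1, and of 6 channel genes 1 and 2.

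The genes whose levels ran most like each member were found by Pearson's r of log2(CPM + 1) over the 14 library and class sums, among 5307 candidate genes. This is a description only, since the sums share 4 libraries and their depths. Bcl2a1b ran most like the leukocyte genes Cd84 (r = 0.959), H2-Ab1 (0.957) and Laptm5 (0.954). Mcl1 ran most like Cyth1 (0.963), and Bcl2 like Sun2 (0.964). The lowest top value belonged to Bcl2l11, whose closest gene was Prcp (0.847), and Pmaip1 was closest to Leprotl1 (0.945).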

How the data were processed

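Single-cell suspensions of 4 libraries (tumor and SAT, control and D-CAN) were sequenced by the authors with 10x Genomics 3′ v3 chemistry. Per the submitters' processing notes and file headers, Cell Ranger 3.1.0 (3.0.2 for SAT D-CAN) and the mm10 genome were used. The deposited values are raw UMI counts per gene and filtered barcode. The 10 genes and all lists were chosen with earlier results of these data known.

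Cells with at least 200 genes were clustered per tissue with Seurat 5.3.0 (2000 variable genes, 10 principal components, resolution 0.8) without the listed genes, and clusters were named from markers. Scrublet in Scanpy 1.11.5 called 16 of 9128 cells as doublets, where 178 were expected, so it did not work as a filter and no doublets were removed. Leaving out the highest doublet scores was an alternative. Tumor clusters of 404 and 171 cells (control and D-CAN) with no clear markers stayed unnamed. Their median mitochondrial share of UMIs was 42.5% and 55.9%, and 79.5% and 83.0% of their cells were over 20%. Of the cancer-like cells, which were kept, 23.8% and 16.15% were over 20%.

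UMIs were summed per library and class, and 14 sums were fitted in edgeR 4.0.16 (R 4.3.3; TMM scaling, filterByExpr, quasi-likelihood test, library and class terms, 7 residual degrees of freedom, adjusted p under 0.05), which was tested on simulated data. DESeq2 1.42.0 was an alternative. Sequences came from RefSeq, and 9 of 10 members matched its promoter table. All 10 members are named with values; of each other list, up to 3 genes with the largest differences among those called in a comparison were eligible to be named. Some genes that this rule would name are not reported here. Library totals ran from 6667064 to 17996284 UMIs, and intervals cover counting error only.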

Additional observations from a re-analysis of the deposited data

Results flagged for a closer look

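A test of the difference between tissues passed for 5 results, all from the interaction fit added after the data were seen, and no explanation of them was weighed. Bcl2 in stromal against endothelial-like cells was 1.81 higher (log2) in SAT than in tumor. In stromal cells against leukocytes, Bcl2l1 was 2.27 higher and Bcl2a1b 2.004 higher in SAT than in tumor. Bcl2 and Pmaip1 in the same comparison were lower in SAT, with differences of -1.55 and -3.93. The Pmaip1 and Bcl2l1 differences passed in every alternative fit that was run. The Bcl2 difference against endothelial-like cells passed in none of them.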

How the results depend on the processing

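Several stromal values rest on under 20 UMIs per library, and each condition has 1 library per tissue. The class comparisons are paired within libraries by the library term. With no replicate block (no library term), 2, 7 and 1 members were called against endothelial-like cells, leukocytes and cancer-like cells, as many as with it, although against leukocytes Bax lost its call and Bcl2l1 (adjusted p = 0.0369) gained one. D-CAN and control share no replicate numbers in the labels. The cause of each change listed here was not tested.

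Member counts are read beside all genes called in the same fit. In SAT alone 1397 genes were higher and 1159 lower of 10133 against endothelial-like cells. Against cancer-like cells 3270 were higher and 3158 lower of 10259 in tumor alone. With no filter on low counts these were 3408 and 2707 of 20228. They were 3085 and 2503 of 11357 with 20 principal components, and 3089 and 2472 of 11322 without the highest doublet scores. The number of members called in stromal against endothelial-like cells was 2, and fell to 1 without either tumor library or the SAT D-CAN library. It was 4 in SAT alone, 1 higher and 3 lower. Against cancer-like cells it was 1, and 0 to 1 with 1 library left out, 2 with no filter on low counts, 2 with 20 principal components, 3 without the highest doublet scores, 5 in tumor alone and 0 without Ptprc-positive cells. All genes called numbered 1289 to 1561 against endothelial-like cells and 3036 to 5184 against cancer-like cells when a library was left out.

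Signs turned mainly for differences near 0. Bcl2 against endothelial-like cells (0.03) became -0.030 by library size, -0.20 with DESeq2, -0.28 and -0.34 without the SAT control or D-CAN library (up to 0.44 with another library left out), -1.002 in tumor alone, -0.24 at 500 genes or more, -0.012 at no more than 20% mitochondrial UMIs, -0.12 without high doublet scores, -0.0063 at resolution 1.2, -0.019 without cancer sums and -0.049 without Ptprc-positive cells. Bcl2a1b there became -0.20 without tumor D-CAN and -0.087 without SAT D-CAN (up to 0.28 with another library left out), -1.49 at 500 genes or more and -0.34 without Ptprc-positive cells. Bid became 0.34 without SAT D-CAN, 0.41 in tumor alone, 0.19 at 500 genes, 0.15 under the mitochondrial limit and 0.18 at resolution 1.2. Against leukocytes, Bcl2l1 (0.041) and Bak1 (0.11) turned in SAT alone, Bak1 by library size (0.012) and Pmaip1 in tumor alone (0.46). Against cancer-like cells, Bcl2 (0.48) and Mcl1 (0.12) turned with no library term, Mcl1 also by library size (0.29), with DESeq2 (0.045) and without tumor control (0.030), and Bax by library size (0.21).

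In the tissue test, the count against endothelial-like cells was 0 at no more than 20% mitochondrial UMIs, without Ptprc-positive cells and with any library left out, and the count against leukocytes was 2 with macrophage-like cells alone, where Bcl2 turned to 0.45. At 500 genes or more, the SAT control share of stromal cells differed by -14.0 points from endothelial-like cells and -20.8 points from leukocytes. Without Mcl1 it differed from leukocytes by -39.6 points in SAT control and -34.8 points in SAT D-CAN, and from endothelial-like cells by -0.42 points in SAT D-CAN, against 15.1 points with all cells. Without Bcl2a1b the gap to leukocytes was -27.0 and -22.7 points in tumor, and without Mcl1 as well it was -9.57 and -6.87 points in tumor and -18.2 and -7.60 points in SAT, where the change of leukocytes with D-CAN turned to -0.86 points. The number of ratios past the fold was 0 at 50 UMIs or more and 2 with TMM scaling, which added Bcl2l11 in tumor endothelial-like cells (-1.02).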
